A study of Mus musculus with 7 samples.

Results

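The hnRNP and SR splicing factors described here are the 31 genes, of 53801 in the deposited read counts, whose symbol is Hnrnp followed by letters or digits or Srsf followed by digits. The set holds 20 hnRNP genes and 11 SR genes, and all 31 passed the filter on low counts. Bulk RNA-seq was made from 7 pieces of C57BL/6J mouse brain labelled cortical plate, 4 at embryonic day 14.5 (E14.5) and 3 from adults of 10.5 months. The 4 E14.5 libraries came from embryos that were Nbs1 fl/+ and carried a Nestin-Cre transgene, which is active in neural progenitors, and the sex was male for replicates 1 and 4 and female for the other two. The 3 adult libraries came from females with a CamK II-Cre transgene, which is active in postnatal excitatory neurons, and replicates 1 and 3 were Atr fl/+ while replicate 2 was Atr +/+. All 7 animals thus carried a Cre transgene. The embryonic libraries were made with a kit that does not mark strand and the adult ones with a kit that does, so age, kit, Cre driver and floxed allele cannot be told apart. The plug and isolation dates in the labels of the 4 embryonic libraries lie 12 days apart, fewer than the labelled stage implies, and the labelled stage is kept here.

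Heterogeneous nuclear ribonucleoproteins (hnRNPs) coat nascent RNA in the nucleus, and many of them block the use of nearby splice sites. SR proteins carry a domain rich in arginine and serine, bind exonic enhancers and help the spliceosome to recognise exons, often against the hnRNPs on the same transcript. In the brain, the balance among these factors shifts as progenitors become neurons, and many SR and hnRNP genes limit their own output through an exon that, when included, sends their transcript to nonsense-mediated decay.

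The promoter windows of 29 of the 31 members were searched for 7 motifs. Each window ran from 250 bases before to 50 bases after the start listed by RefSeq on GRCm38.p6. Where several starts were listed for a gene, the most upstream one was used, and 23 members had 1 window. The windows of Hnrnpa1, Hnrnph2, Srsf3 and Srsf5 are shown because, among members with 1 listed start within 50 bases of the GENCODE start, these had the largest called fall and rise in each family. The rises of Hnrnph2 and Srsf5 depend on the scaling, as described with their values. The windows lie at chr15:103240147-103240446, chrX:134600929-134601228, chr17:29032410-29032709 and chr12:80945249-80945548, all on the plus strand, and capitals mark every match to a searched motif on either strand.
Hnrnpa1: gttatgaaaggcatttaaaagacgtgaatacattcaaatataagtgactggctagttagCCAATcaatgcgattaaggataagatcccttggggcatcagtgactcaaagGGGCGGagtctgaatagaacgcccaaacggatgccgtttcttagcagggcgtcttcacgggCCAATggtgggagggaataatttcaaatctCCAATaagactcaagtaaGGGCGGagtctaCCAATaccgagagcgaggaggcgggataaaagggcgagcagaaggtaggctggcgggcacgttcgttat
Hnrnph2: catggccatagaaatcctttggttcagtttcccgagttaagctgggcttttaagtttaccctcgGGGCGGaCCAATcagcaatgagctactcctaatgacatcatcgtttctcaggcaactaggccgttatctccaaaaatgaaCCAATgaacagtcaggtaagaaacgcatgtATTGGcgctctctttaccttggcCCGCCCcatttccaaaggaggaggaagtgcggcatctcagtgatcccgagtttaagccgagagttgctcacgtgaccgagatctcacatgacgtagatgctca
Srsf3: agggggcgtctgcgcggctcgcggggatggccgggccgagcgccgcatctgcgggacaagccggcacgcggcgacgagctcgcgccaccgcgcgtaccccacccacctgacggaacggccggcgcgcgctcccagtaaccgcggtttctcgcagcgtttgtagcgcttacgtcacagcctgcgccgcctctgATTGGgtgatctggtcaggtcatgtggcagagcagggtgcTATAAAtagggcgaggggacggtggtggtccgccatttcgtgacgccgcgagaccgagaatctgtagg
Srsf5: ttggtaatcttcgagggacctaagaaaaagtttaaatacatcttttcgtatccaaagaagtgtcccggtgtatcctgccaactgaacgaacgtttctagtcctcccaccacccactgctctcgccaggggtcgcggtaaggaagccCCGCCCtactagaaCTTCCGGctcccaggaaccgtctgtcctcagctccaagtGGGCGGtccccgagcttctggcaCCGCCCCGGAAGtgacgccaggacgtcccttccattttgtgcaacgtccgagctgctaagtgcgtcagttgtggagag
The Hnrnpa1 window held 4 CCAAT boxes and 2 GC boxes, that of Hnrnph2 held 3 and 2, that of Srsf3 held 1 CCAAT box and 1 TATA box, and that of Srsf5 held 3 GC boxes and 2 ETS motifs. In the windows of Hnrnpa1 and Hnrnph2, 48.3% and 49.0% of bases were G or C. Across the 29 members the GC box (GGGCGG) was found in 23 windows (79.3%) against 35.9% of 27025 RefSeq windows, and the CCAAT box (CCAAT) in 16 (55.2%) against 38.0%. The RefSeq windows were not limited to genes that passed the filter on low counts, as all members did. The TATA box (TATAAA) was found in 4 (13.8%) against 14.2%, the ETS motif (CCGGAAG) in 6 (20.7%) against 9.14%, and the YY1 motif (AAGATGG) in 1 (3.45%) against 6.46%. The E2F (TTTGGCGC) and CREB (TGACGTCA) motifs were found in 0 member windows against 0.537% and 1.85% of all windows. None of these motifs contains another, though neighbouring matches may overlap. The median share of G and C was 68.3% over member windows and 52.7% over all windows. Matches are letters in these windows and say nothing of binding, and a link between windows and changes with age was not tested.

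Library totals ran from 32533065 to 43197226 counts in the 4 embryonic libraries and from 27327927 to 29996018 in the 3 adult libraries, and member counts ran from 315 to 108054 per library, the lowest in Srsf12. Within an age the coefficient of variation of a member had a median of 3.87% at E14.5 and 4.08% in adults. Mitochondrially encoded transcripts took 2.22% to 2.36% of embryonic and 7.74% to 8.51% of adult counts. Tbr1, a marker of cortical excitatory neurons, was present at both ages, with a mean of 319 CPM (counts scaled to library size, here by TMM) at E14.5 and 165 CPM in adults. Eomes, a marker of intermediate progenitors, was at 303 CPM at E14.5 and 0.0524 CPM in adults. Summed CPM of 6 striatal markers was 23.9 to 34.6 at E14.5 and 217 to 351 in adults.

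Relative to the rest of each library, RNA of most hnRNP and SR genes was lower in the adult pieces than in the E14.5 ones. Of the 31 members, 25 were lower in adults, 4 were higher and 2 were not called, by edgeR's quasi-likelihood test with Benjamini-Hochberg adjustment over 20800 genes and TMM scaling. Among all genes tested, 44.7% were called lower and 41.7% higher, against 80.6% and 12.9% of the members. The 20 hnRNP genes split into 18 lower, 1 higher and 1 not called, and the 11 SR genes into 7 lower, 3 higher and 1 not called. The median log2 fold change, adult against E14.5, was -1.15 over hnRNP genes, -0.85 over SR genes and -0.08 over all genes tested. When scaled by total counts alone, 30 members were lower and Srsf12 alone was higher (55.1% and 32.5% of all genes), and the median over all genes shifted by -0.41. Relative to the median of all genes in the same setting, the hnRNP median was -1.08 and the SR median -0.77 under both scalings. A change of scaling shifts all genes nearly alike, so the likeness of these values is built in and gives no support. In bulk tissue, fewer cells of a type and less RNA per cell cannot be told apart.

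**Figure D1:**
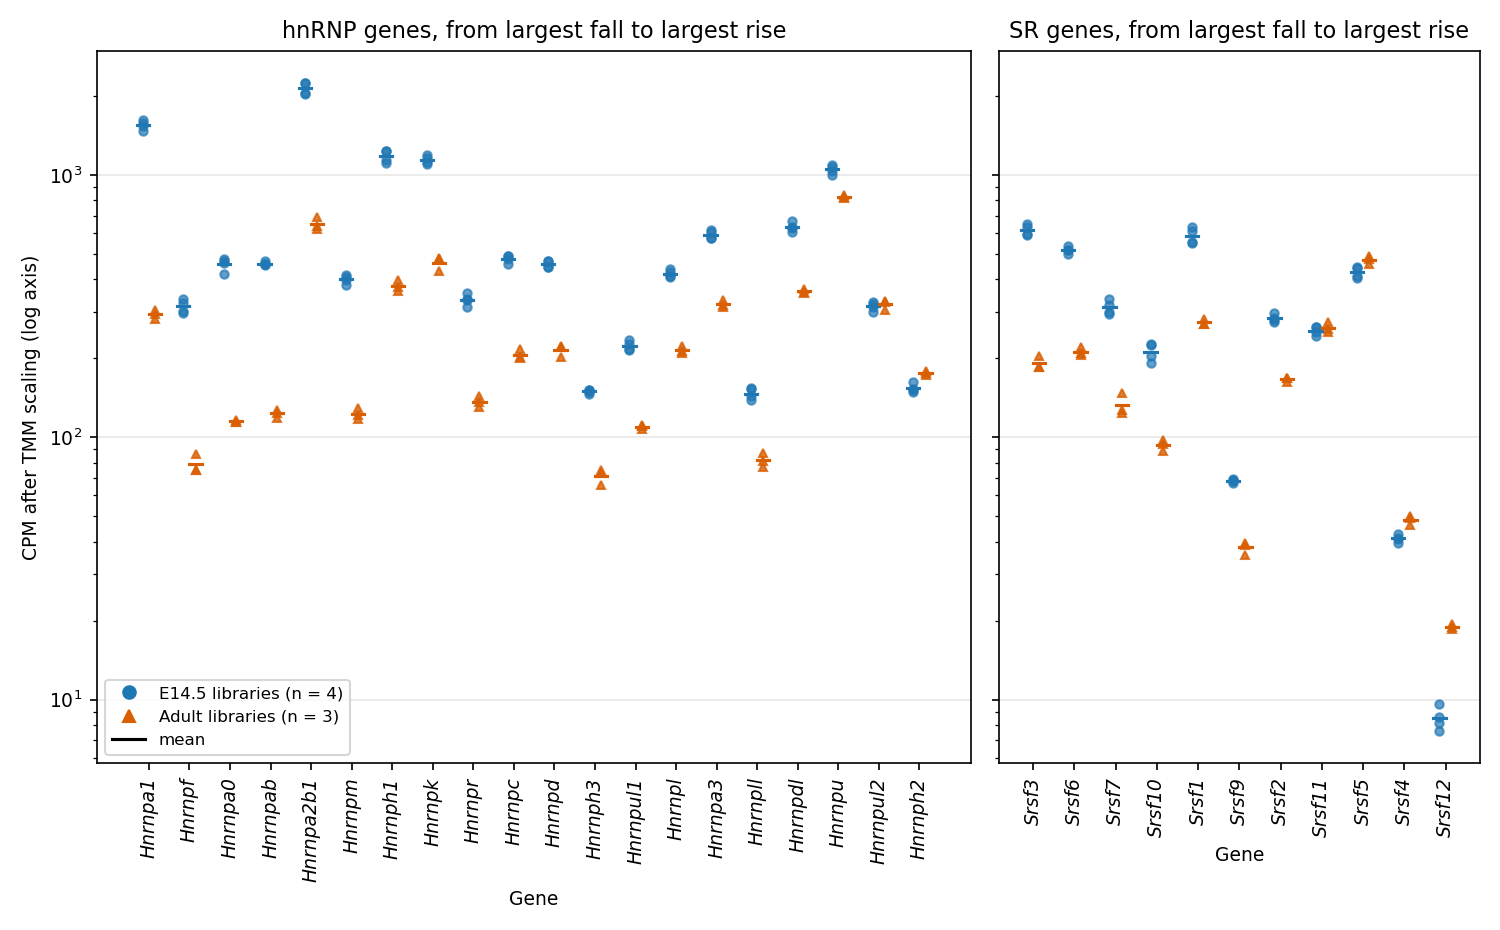
Level of each member in every library, in CPM after TMM scaling on a log axis, with circles for the 4 E14.5 libraries, triangles for the 3 adult libraries and a bar for each mean. The ages do not overlap for 29 genes, 25 of them lower in adults, and they overlap for Hnrnpul2 and Srsf11; with total-count scaling 30 of the 31 genes are lower.

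The ages did not overlap in CPM for 29 of the 31 members, 25 of them lower and 4 higher in adults, where 44% and 41.3% of all genes tested lay wholly below or above. That is 93.5% of the members, near the 85.3% of all genes tested that did not overlap. Against a threshold of 2-fold (edgeR's glmTreat, adjusted p under 0.05), 16 members were lower and 1 was higher, which are 51.6% and 3.23% of the members against 22.7% and 24.6% of all genes. The 16 were 11 hnRNP and 5 SR genes. The hnRNP genes together took 1.42% ± 0.0413 (SD, n = 4) of all counts at E14.5 and 0.446% ± 0.0148 (SD, n = 3) in adults. The SR genes took 0.376% ± 0.0154 at E14.5 and 0.162% ± 0.00575 in adults.

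The A/B hnRNPs, abundant shuttling proteins that bind UAG-containing sites and repress exons, were all lower in adults. Hnrnpa1, a repressor that silences exons and also escorts mRNA to the cytoplasm, stood at 1470.2, 1578, 1529 and 1622 CPM in E14.5 replicates 1 to 4 and at 295, 282 and 305 CPM in the adult replicates. All adult values lay far below all embryonic ones, and the log2 change of -2.40 (SE 0.0591, edgeR adjusted p = 2.5e-11) was the largest fall of the 31, 5.27-fold. Hnrnpa2b1, which also guides the transport of mRNAs such as that of myelin basic protein, had the most counts of any member at E14.5, at 2027, 2237, 2045 and 2231 CPM at E14.5 and 620.0, 636 and 691 CPM in adults, where Hnrnpu had more. Its log2 change was -1.72 (SE 0.0644, edgeR adjusted p = 6.1e-10), and it kept more of its embryonic level than Hnrnpa1 did.

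Hnrnpa0, an A/B member encoded by an intronless gene, fell from 479.7, 459.7, 471 and 420.3 CPM to 116, 115 and 115 CPM, a log2 change of -1.99 (SE 0.0585, edgeR adjusted p = 8.6e-11). Hnrnpab, a relative also known as CArG box-binding factor A, fell from 469, 457, 452 and 457 CPM to 124, 119 and 127 CPM, a log2 change of -1.90 (SE 0.0494, edgeR adjusted p = 3.6e-11). Both genes were 3.98-fold and 3.72-fold lower in adults, with no overlap between ages. Exons of Phykpl on the opposite strand cover 29.1% of the Hnrnpab exons, and Phykpl itself was at 17.0 CPM at E14.5 and 4.80 CPM in adults, beside means of 459 and 123 CPM for Hnrnpab. Hnrnpa3 had the smallest fall of this group, from 575, 617, 575 and 603 CPM to 313, 319.7 and 334 CPM, or -0.88 (SE 0.0523, edgeR adjusted p = 3.1e-08). It has 33 processed pseudogenes in the annotation, whose counts amounted to 59.2% of its own at E14.5 and 27.4% in adults. With those counts added, chosen as an alternative after seeing the data, its log2 fold change was -1.21. For Hnrnpa1, 20 such copies held 23.6% and 20.7% of the gene's counts.

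The F/H hnRNPs bind runs of G and can enhance or repress an exon by position, and their 4 genes did not move alike. Hnrnpf fell from 303, 337, 298 and 324 CPM to 75.2, 75.1 and 86.1 CPM, a log2 change of -2.002 (SE 0.0695, edgeR adjusted p = 3.3e-10). Hnrnph1, the third most abundant member per length at E14.5, fell from 1110.5, 1238, 1135 and 1229 CPM to 362, 372 and 396 CPM, a log2 change of -1.65 (SE 0.0625, edgeR adjusted p = 6.8e-10). Hnrnph3, a shorter relative, fell from 152, 149, 151 and 146 CPM to 74.9, 65.7 and 73.1 CPM, a log2 change of -1.07 (SE 0.0532, edgeR adjusted p = 6.5e-09), which did not pass the 2-fold threshold. In all of these the adult values lay below every embryonic value.

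Hnrnph2, the X-linked and near-identical relative of Hnrnph1, went the other way under TMM scaling. It was at 151, 162, 148 and 153 CPM at E14.5 and at 172, 176 and 179 CPM in adults, with every adult value above every embryonic one. The log2 change was 0.19 (SE 0.0458, edgeR adjusted p = 0.0022) with TMM, and -0.22 with total-count scaling and -0.15 with GC and length offsets. Relative to the median of all genes it was 0.27 above under both of the first scalings, 0.065 above with the offsets and 0.088 above among protein-coding genes only. The likeness under TMM and total counts is built in, since a change of scaling shifts all genes nearly alike. Pseudogene copies held 20.6% and 33.8% of the counts of Hnrnpf at E14.5 and in adults, and 11.1% and 10.0% of those of Hnrnph2. Reads that match several copies could be split between them, and their part in the results was not tested beyond adding the copies' counts.

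The remaining RNA-binding hnRNPs, which differ in the sequence they prefer, were all lower in adults. Hnrnpm, which binds GU-rich RNA, fell from 397, 408, 382 and 414 CPM to 121, 118 and 129 CPM, a log2 change of -1.70 (SE 0.0545, edgeR adjusted p = 1.7e-10). Hnrnpk, a KH-domain protein that binds C-rich RNA and DNA, fell from 1119.9, 1187, 1099 and 1159 CPM to 429.8, 478 and 482 CPM, a log2 change of -1.30 (SE 0.0597). Hnrnpc, which binds runs of U and keeps cryptic exons out of mRNA, fell from 479.8, 490.1, 457 and 489 CPM to 201, 203 and 216 CPM, a log2 change of -1.21 (SE 0.0527). None of the 3 overlapped between ages, and each passed the 2-fold threshold.

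Hnrnpr, a partner of the SMN protein in motor axons, was at 313, 336, 333 and 354 CPM at E14.5 and at 130.1, 144 and 137 CPM in adults, a log2 change of -1.29 (SE 0.0584). Hnrnpd, also called AUF1, which binds AU-rich elements and steers mRNA decay, was at 447, 472, 444 and 469 CPM and then at 202, 221 and 223 CPM, a log2 change of -1.09 (SE 0.0551). Its relative Hnrnpdl fell less, from 606, 667, 626 and 632 CPM to 366, 355 and 357 CPM, or -0.82 (SE 0.0514). Hnrnpd passed the 2-fold threshold narrowly (edgeR glmTreat adjusted p = 0.038) and Hnrnpdl did not.

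Hnrnpl, which binds CA repeats, was at 410.0, 437, 408 and 425 CPM at E14.5 and at 223, 209.7 and 213 CPM in adults, a log2 change of -0.97 (SE 0.0504). Hnrnpll, its paralogue known from alternative splicing of CD45 in lymphocytes, was at 138, 154, 143 and 152 CPM and then at 76.98, 80.99 and 87.1 CPM, a log2 change of -0.85 (SE 0.0591). Both ran close to 2-fold without passing that threshold, and neither overlapped between ages. Adjusted p-values of the genes in these last 2 groups ran from 1.7e-10 for Hnrnpm to 1.2e-07 for Hnrnpll by edgeR's quasi-likelihood test.

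Hnrnpu and its relatives, large proteins that bind both chromatin and RNA, changed by different amounts. Hnrnpu, also called scaffold attachment factor A, was at 999, 1093, 1037 and 1068 CPM at E14.5 and at 814, 827 and 835 CPM in adults. It was lower without overlap with a log2 change of only -0.35 (SE 0.0505, edgeR adjusted p = 6.4e-05). Hnrnpul1 fell from 228, 214, 217 and 235 CPM to 111, 107 and 110.3 CPM, a log2 change of -1.03 (SE 0.0489, edgeR adjusted p = 4.5e-09). Hnrnpul2 was at 300.2, 322, 313 and 327 CPM at E14.5 and at 304, 328 and 332 CPM in adults, and the ages overlapped. Its log2 change was 0.03 (SE 0.0526, edgeR adjusted p = 0.65) with TMM and -0.39 with total-count scaling, where it was called lower.

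**Figure D2:**
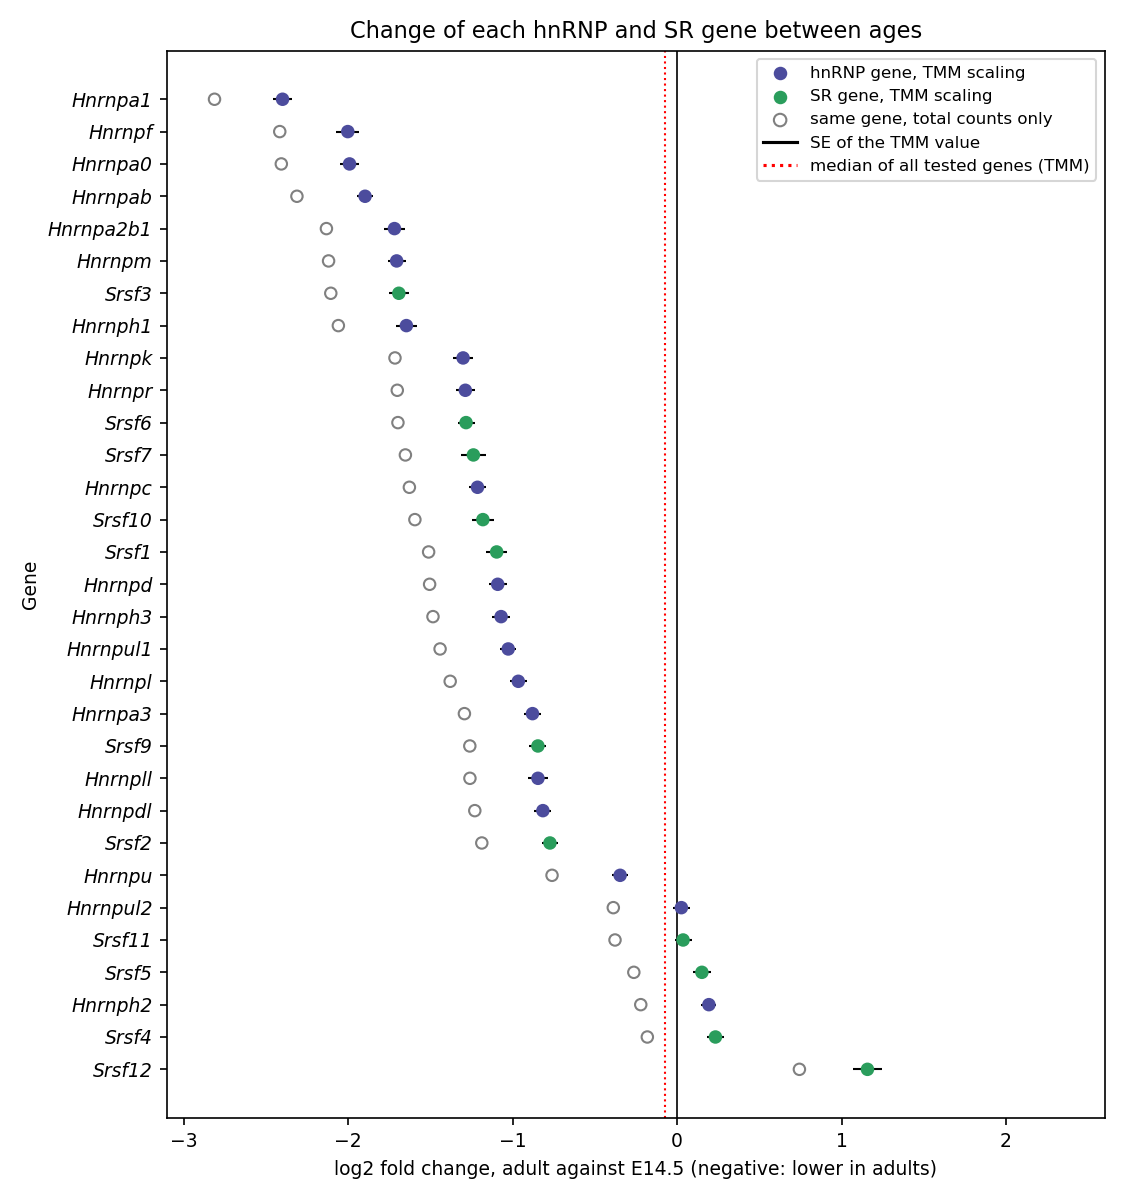
Log2 fold change of each member, adult against E14.5, from edgeR with TMM scaling (filled, with its SE) and with total counts only (open), with the median of all tested genes dotted. The genes run from Hnrnpa1 at -2.40 to Srsf12 at 1.16, and Hnrnpul2, Srsf11, Srsf5, Hnrnph2 and Srsf4 lie above 0 with TMM and below it with total counts.

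Among the SR genes, Srsf3 and its closest relative Srsf7, adaptors that couple splicing to mRNA export, fell by more than 2-fold. Srsf3 was at 594, 651, 591 and 635 CPM at E14.5 and at 185, 185 and 204 CPM in adults, a log2 change of -1.69 (SE 0.0618, edgeR adjusted p = 5e-10). Srsf7 was at 296, 337, 301 and 319 CPM and then at 124, 127 and 148 CPM, a log2 change of -1.24 (SE 0.0737, edgeR adjusted p = 3.1e-08). Neither overlapped between ages, and Srsf7 had the widest relative spread among adults of the 31, 9.81%.

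Srsf1, the founding member of the family and an enhancer of exon inclusion, fell from 551, 633, 553 and 610.1 CPM to 269.7, 270.4 and 283 CPM, a log2 change of -1.10 (SE 0.0636, edgeR adjusted p = 2.5e-08). Its relative Srsf9 fell from 68.2, 69.5, 68.9 and 67.2 CPM to 39.0, 35.6 and 39.6 CPM, a log2 change of -0.85 (SE 0.0512, edgeR adjusted p = 3.5e-08). Srsf2, a component of nuclear speckles, fell from 285, 297, 279 and 275 CPM to 169, 162 and 168 CPM, a log2 change of -0.77 (SE 0.047, edgeR adjusted p = 3.7e-08). Srsf1 passed the 2-fold threshold narrowly (edgeR glmTreat adjusted p = 0.048), and Srsf9 and Srsf2 did not pass it. Exons of Mettl23 and Mfsd11 on the opposite strand cover 25.3% of those of Srsf2. Mettl23 was at 20.9 CPM at E14.5 and 12.3 CPM in adults, and Mfsd11 at 18.6 and 26.1 CPM.

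The closely related SR genes Srsf4, Srsf5 and Srsf6, whose proteins bind purine-rich exonic enhancers among other sites, went in different directions under TMM scaling. Srsf6 fell from 515, 534, 499 and 517 CPM to 209, 206 and 221 CPM, a log2 change of -1.28 (SE 0.0515, edgeR adjusted p = 1.1e-09). Srsf5 was at 413, 443, 405 and 447 CPM at E14.5 and at 489.6, 456 and 477 CPM in adults. The ages did not overlap, and the log2 change was 0.15 (SE 0.0554, edgeR adjusted p = 0.025) with TMM, but -0.26 with total-count scaling and -0.14 with GC and length offsets. The call was also lost when E14.5 replicate 1 or 3 or adult replicate 1 or 3 was left out, with log2 fold changes of 0.14, 0.12, 0.13 and 0.15.

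Srsf4 was at 41.1, 41.4, 39.6 and 42.9 CPM at E14.5 and at 50.1, 46.4 and 49.0 CPM in adults. The log2 change was 0.23 (SE 0.0509, edgeR adjusted p = 0.0013) with TMM, but -0.18 with total-count scaling and -0.07 with GC and length offsets. Exons of Gm12992 on the opposite strand cover 43.02% of those of Srsf4, and Gm12992 was at 0.216 CPM at E14.5 and 2.78 CPM in adults. Because the kits differed in keeping strand, the part of such overlaps in these results cannot be told apart from age. Relative to the median of all genes, Srsf5 was 0.23 and Srsf4 0.31 above under both scalings, 0.078 and 0.14 above with the offsets, and 0.046 and 0.13 above among protein-coding genes only. The likeness under both scalings is again built in and does not bear on the rises.

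Srsf10 and Srsf12 encode relatives that can repress splicing rather than promote it, and they moved apart. Srsf10 fell from 192, 225, 204 and 226 CPM to 89.0, 94.0 and 97.5 CPM, a log2 change of -1.18 (SE 0.0679, edgeR adjusted p = 2.3e-08). Srsf12, the scarcest member at both ages, was at 7.63, 8.59, 9.61 and 8.18 CPM at E14.5 and at 19.4, 18.6 and 18.9 CPM in adults. Every adult value was above every embryonic one, and the log2 change was 1.16 (SE 0.0892, edgeR adjusted p = 2.9e-07), 2.23-fold. It stayed above 0 with total-count scaling, at 0.74. Its excess over 2-fold (edgeR glmTreat adjusted p = 0.033) was lost in 16 of 24 alternatives, among them total counts, DESeq2, limma-voom, the replicate block and leaving out E14.5 replicate 1 or 4 or adult replicate 1 or 3. Srsf11, which acts with Srrm4 on neural microexons, was at 244, 263, 251 and 264 CPM at E14.5 and at 274, 251 and 259.6 CPM in adults. Its ages overlapped, and the log2 change was 0.04 (SE 0.0513, edgeR adjusted p = 0.51) with TMM and -0.38 with total-count scaling, where it was called lower.

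Levels can be compared between genes only per length, which the deposited RPKM allows. At E14.5 the order was led by Hnrnpa1 at 555 ± 18.4 RPKM, Hnrnpa2b1 at 366 ± 17.5 RPKM and Hnrnph1 at 228 ± 11.0 RPKM (SD, n = 4). These 3 did not overlap one another. In adults it was led by Srsf5 at 101 ± 3.95 RPKM, Hnrnpa2b1 at 83.6 ± 5.18 RPKM and Hnrnpa1 at 79.1 ± 3.59 RPKM (SD, n = 3). Srsf5 lay above both others in every adult library, while Hnrnpa2b1 and Hnrnpa1 overlapped. Srsf5 moved from rank 13 of 31 to rank 1, Hnrnpu from rank 17 to rank 6 and Hnrnpul2 from rank 21 to rank 11, and Srsf12 was last at both ages, at 3.05 and 5.10 RPKM. On this scale, which uses total counts, Srsf5, Hnrnpu and Hnrnpul2 had lower adult values than embryonic ones although their rank rose.

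**Figure D3:**
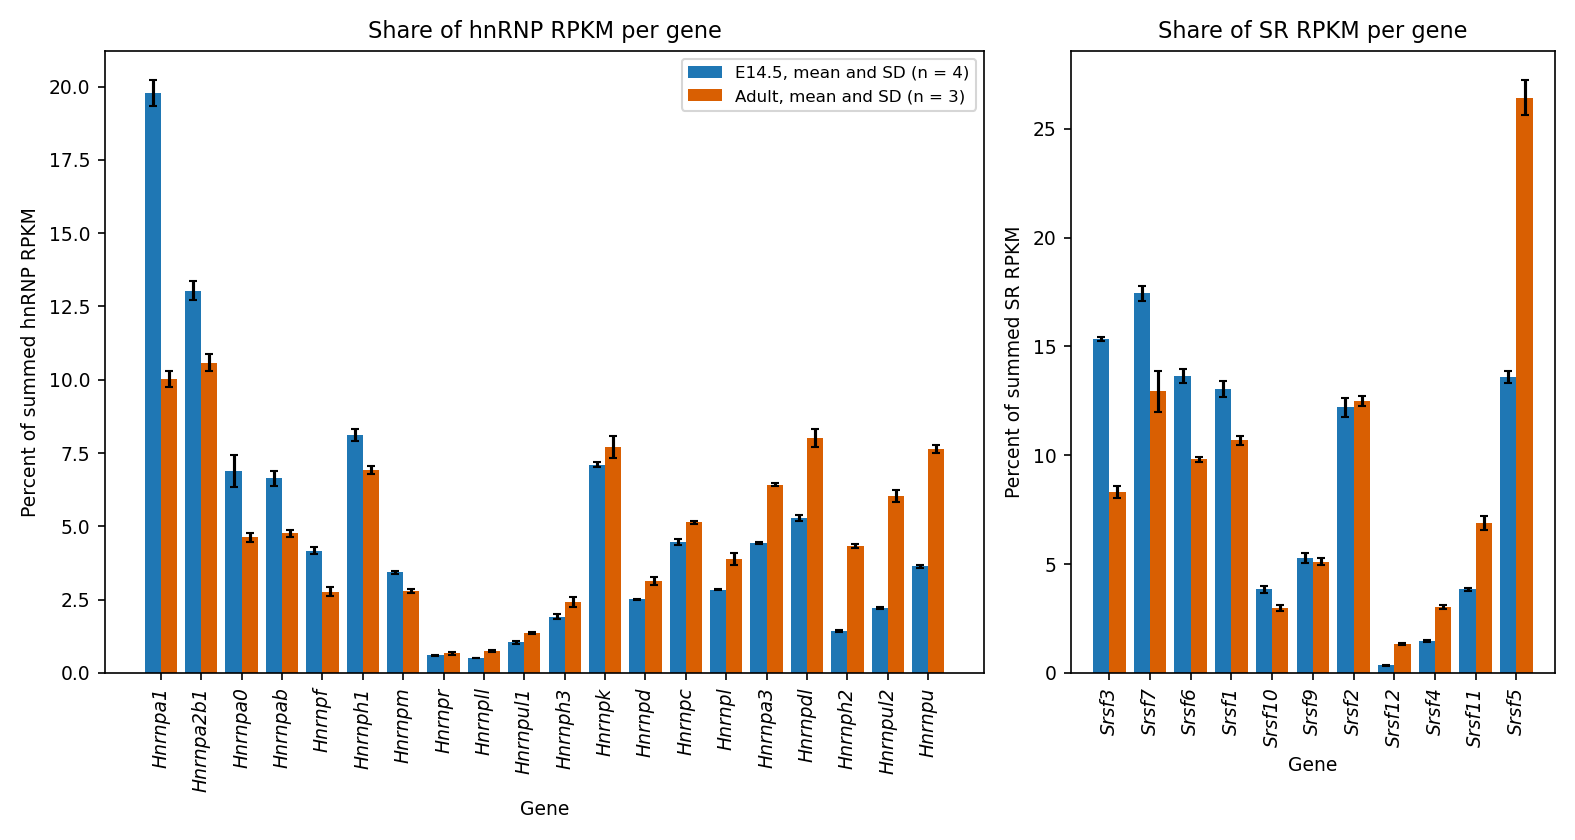
Share of the summed RPKM of each family taken by each of its genes, as bars from 0 with the SD over 4 E14.5 and 3 adult libraries. Hnrnpa1 takes 19.8% of hnRNP RPKM at E14.5 and 10.0% in adults, and Srsf5 takes 13.6% of SR RPKM at E14.5 and 26.4% in adults.

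The make-up of each family, which does not depend on scaling between libraries, also changed. Summed hnRNP RPKM went from 2808 ± 70.8 at E14.5 to 789 ± 26.4 in adults, and summed SR RPKM from 890.0 ± 34.8 to 382 ± 15.03. These sums, unlike the shares, are scaled by total counts and do depend on the scaling. Hnrnpa1 took 19.3%, 19.5%, 19.99% and 20.3% of the hnRNP sum in the E14.5 replicates and 10.3%, 9.72% and 10.1% in the adult ones. The shares of Hnrnpa2b1, Hnrnpa0, Hnrnpab, Hnrnpf, Hnrnph1 and Hnrnpm were also smaller in adults. The largest gains were those of Hnrnpu, from 3.64% to 7.65%, Hnrnpul2, from 2.22% to 6.03%, Hnrnph2, from 1.42% to 4.32%, and Hnrnpdl, from 5.28% to 8.02%. Thus genes that fell little in CPM, such as Hnrnpu, held a larger share of a smaller sum.

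Srsf5 took 13.6%, 13.4%, 13.4% and 13.98% of the SR sum at E14.5 and 27.3%, 26.3% and 25.7% in adults, the largest change in share of the 31. Srsf11 went from 3.84% to 6.89%, Srsf4 from 1.47% to 3.03% and Srsf12 from 0.343% to 1.34%. Srsf3 lost most, from 15.3% to 8.32%, and Srsf7, Srsf6, Srsf1 and Srsf10 also had smaller shares in adults. In these shares the ages did not overlap for 29 members, and they overlapped for Srsf2 and Srsf9. Shares within other gene sets were not computed, and in CPM 85.3% of all genes tested did not overlap between ages. The length used for RPKM differs from the GENCODE M21 exon length for Srsf7, Hnrnpm, Srsf3 and Hnrnpul2. With the latter, the change of Srsf3 was -5.42 instead of -7.03 percentage points.

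Closely related genes were set against each other within each library for 11 pairs, as a log2 ratio of CPM plus 0.5. With 4 against 3 libraries the smallest two-sided p of the exact permutation test is 0.0571, so no pair could pass 0.05. In all, 9 pairs reached that smallest p, with no overlap between ages (Benjamini-Hochberg adjusted p = 0.0698 over the 11 pairs). Lack of overlap was common between these ages, at 85.3% of all genes tested in CPM. The share among pairs of other genes was not computed, so the count of pairs is not particular to these genes. The widest shift was in Srsf10 to Srsf12, from 4.57, 4.63, 4.34 and 4.71 at E14.5 to 2.17, 2.31 and 2.34 in adults. In RPKM, Srsf10 was 11.3 ± 1.23 times Srsf12 at E14.5 and 2.22 ± 0.139 times in adults. Hnrnph1 to Hnrnph2 went from 2.87, 2.93, 2.93 and 3.00 to 1.07, 1.08 and 1.15, or from 5.74 ± 0.218 to 1.60 ± 0.0483 in RPKM. Each adult ratio in these pairs was below every embryonic one.

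**Figure D4:**
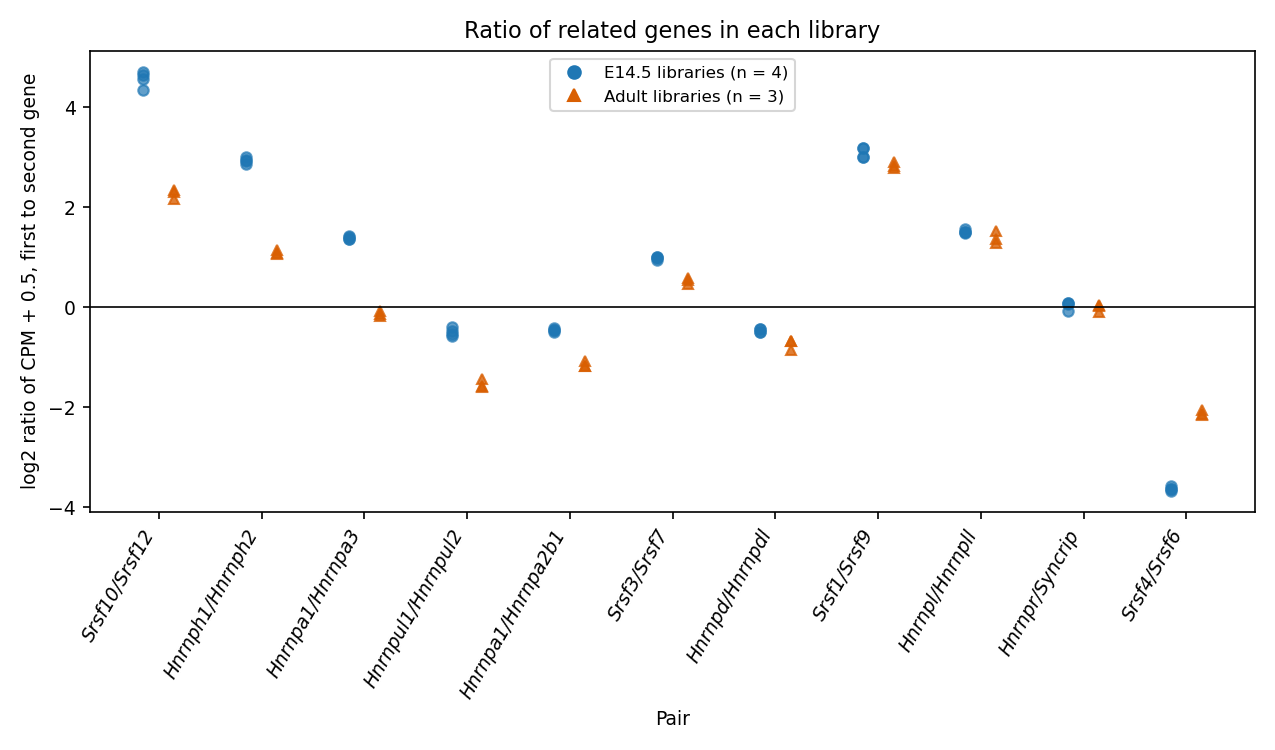
Log2 ratio of CPM plus 0.5 of the first to the second gene of each pair in every library, with circles for E14.5 and triangles for adults. Srsf4/Srsf6 rises by 1.51, 8 other pairs fall without overlap, and Hnrnpl/Hnrnpll and Hnrnpr/Syncrip overlap between ages.

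Hnrnpa1 to Hnrnpa3 went from a mean log2 ratio of 1.39 ± 0.038 at E14.5 to -0.13 ± 0.05 in adults. Hnrnpa1 to Hnrnpa2b1 went from -0.46 ± 0.034 to -1.14 ± 0.062, and per length Hnrnpa1 was 1.52 ± 0.0360 times Hnrnpa2b1 at E14.5 and 0.947 ± 0.0409 times in adults. Per length, Hnrnpa1 was thus above Hnrnpa2b1 in every embryonic library and at 0.994, 0.925 and 0.922 times it in the adult libraries, nearly level in the first. Srsf4 to Srsf6 was the only pair of the 11 to shift upward, from -3.63 ± 0.041 to -2.12 ± 0.057. Hnrnpul1 to Hnrnpul2 shifted by -1.05, Srsf3 to Srsf7 by -0.45, Hnrnpd to Hnrnpdl by -0.28 and Srsf1 to Srsf9 by -0.25. In 2 pairs the ages overlapped. Hnrnpl to Hnrnpll shifted by -0.12 (exact permutation test, p = 0.23), and Hnrnpr to its paralogue Syncrip by -0.05 (exact permutation test, p = 0.34). Syncrip was at 296, 352, 317 and 337 CPM at E14.5 and at 127, 142 and 146 CPM in adults. Per length, Hnrnpr was 0.569 ± 0.0276 times Syncrip at E14.5 and 0.549 ± 0.0270 times in adults.

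The members were set beside other splicing genes in 9 lists. Of 8 further hnRNP proteins that do not carry the Hnrnp symbol, 8 were lower in adults, with a median log2 fold change of -1.19. Ptbp1, the repressor whose loss accompanies neuronal differentiation, fell by 2.55, from 211, 233, 216 and 238 CPM to 39.8, 36.3 and 39.1 CPM. Rbmx, the X-linked hnRNP G, fell by 1.803. Of 4 genes for arginine methyltransferases, which modify hnRNPs, and for the import receptor of A/B hnRNPs, 4 were lower, with a median of -1.13. Prmt1, the main enzyme of asymmetric methylation, fell by 2.31 (SE 0.0521, edgeR adjusted p = 1.3e-11) and Prmt5 by 1.14.

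The lists nearest the SR proteins were more mixed. Of 15 SR-related proteins, 9 were lower, 4 higher and 2 not called, with a median of -0.25, and with total counts 11 were lower and 2 higher. Srrm4, the neural microexon regulator, fell by 1.61 and Tra2b, a sequence-specific activator, by 1.57, while Srrm3, the relative of Srrm4, rose by 1.68. Srrm4 was at 200 CPM at E14.5 and 65.5 CPM in adults, and Srrm3 at 15.6 and 50.01 CPM. Of 9 genes for kinases that phosphorylate SR proteins and for their import receptor, 3 were lower and 5 higher with TMM, and 5 were lower and 2 higher with total counts. Srpk3 rose by 5.29, from 0.252 ± 0.0602 to 9.89 ± 0.958 CPM, Srpk2 rose by 1.28 and Clk2 fell by 0.85.

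**Figure D5:**
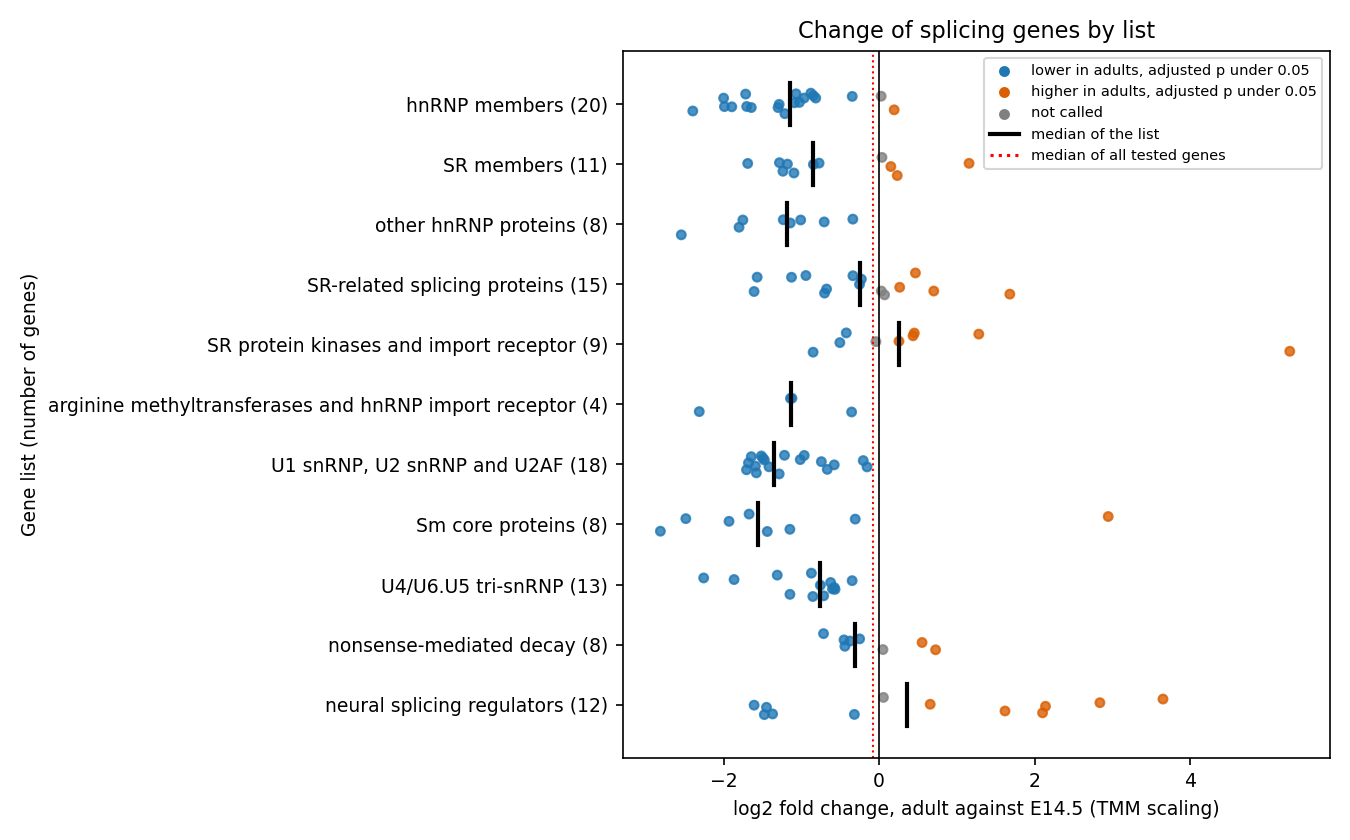
Log2 fold change of each gene, adult against E14.5 with TMM scaling, in the 2 member families and 9 further lists, coloured by call, with the median of each list as a bar. The spliceosome lists lie mostly below 0, and the kinase and neural regulator lists have medians of 0.26 and 0.36, which become -0.16 and -0.06 with total counts.

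Core spliceosome genes were lower as well. Of 18 genes of the U1 and U2 particles and U2AF, 18 were lower, with a median of -1.35, and Phf5a fell by 1.71 and U2af1 by 1.68. Of 13 genes of the tri-snRNP, 13 were lower, with a median of -0.76, and Snrnp40 fell by 2.26 and Ppih fell by 1.87. Of the 8 Sm core genes, 7 were lower, with a median of -1.56, including Snrpg by 2.82 and Snrpe by 2.49. Snrpn, the imprinted paralogue of Snrpb that is used in the brain and shares a transcript with Snurf, rose by 2.95, from 69.3 to 535 CPM, while Snrpb went from 190 to 59.6 CPM. Of 8 genes of nonsense-mediated decay, the pathway that degrades the unproductive transcripts of many members, 5 were lower and 2 higher, with a median of -0.31, and 6 and 2 with total counts. Upf3b fell by 0.72, Smg6 by 0.45, and Smg1 rose by 0.73. Of 12 neural splicing regulators, 5 were lower and 6 higher, with a median of 0.36, and 6 and 6 with a median of -0.06 with total counts. Mbnl2 rose by 3.65, from 26.1 to 329 CPM, Rbfox1 by 2.84, from 38.1 to 273 CPM, and Srrm4, also in this list, fell. These medians stand beside -0.08 for all genes tested.

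Cell type markers moved with age beside all of these results. The 8 markers of cycling cells were all lower in adults, with a summed level of 1169 to 1361 CPM at E14.5 and 3.39 to 5.11 CPM in adults. The 6 oligodendrocyte markers were all higher, at 29.5 to 32.3 CPM and then 5677 to 5929 CPM, as were the 6 astrocyte markers, at 144 to 195 and then 4598 to 4726 CPM, and the 6 microglial ones, at 32.2 to 45.2 and then 247 to 266 CPM, though with total counts 5 of the astrocyte markers were called. The 6 erythroid markers were lower, at 182 to 338 and then 3.26 to 4.05 CPM, with Hba-x and Hbb-bh1 at 0 counts in the adult libraries. The 6 ganglionic eminence markers were at 64.8 to 142 CPM and then 45.7 to 50.5 CPM. Of the 6 endothelial markers 3 were lower and 2 higher, of the 6 meningeal ones 5 were lower, and of the 6 choroid plexus ones 4 were lower and 1 higher. The part of cell make-up in the changes of the members was not tested.

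At E14.5 no sex difference was called for any member. Between 2 female and 2 male libraries, 0 of the 31 members passed an adjusted p of 0.05 by edgeR's quasi-likelihood test, 0 had an unadjusted p under 0.05, and 0 were called by DESeq2. Over all genes tested, 0.0497% were called, so 0 of 31 members is near the share of all genes. The smallest unadjusted p was that of Hnrnpul1, with a log2 fold change, female against male, of -0.10 (SE 0.0649). On simulated counts this comparison found 21 of the 64 genes given a 1.5-fold change and 50 of the 67 given a 2-fold one. It made 24 false calls, and small sex differences could be missed. With female libraries alone, 25 members were again lower in adults and 3 were higher, as the call of Srsf5 was lost.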

How the data were processed

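RNA was measured by RNA-seq in 7 libraries, grouped by the age in their labels. For each gene the authors deposited read counts as whole numbers, RPM (counts scaled to the library total) and RPKM (RPM divided by 1 gene length, shared by all libraries). Per the submitters' processing notes, bcl2fastq 1.8.4, TopHat2 2.1.0, featureCounts 1.5.0 and GRCm38 were used. How strand, multiply matching reads and the annotation release were set is not given in the sources used here, and the labels do not say that the libraries came from separate litters, so p-values measure only the spread between these samples.

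The counts of all 53801 genes were fitted with edgeR 4.0.16 (R 4.3.3) with TMM scaling, filterByExpr (minimum count 10) and age as the only term, and 20800 genes were tested at a Benjamini-Hochberg adjusted p of 0.05. CPM are scaled by TMM. A fit of this kind on simulated counts of 20240 genes made 14 false calls and found 33 of the 64 genes given a 1.5-fold change, 58 of the 66 given a 2-fold one and all 65 given a 4-fold one. Few genes were changed there, in both directions, whereas most tested genes were called in the data. The simulation therefore cannot test the scaling between ages. Ratios of related genes were tested by an exact two-sided permutation test (SciPy 1.17.1). Alternatives used DESeq2 1.42.0 and limma 3.58.1, other scalings, filters and gene sets, GC content and length offsets, sex, the replicate number, single libraries left out and pseudogene counts added. Positions, exon overlaps and pseudogenes came from GENCODE M21 on GRCm38 (53620 identifiers matched), with processed pseudogenes assigned by BLAST 2.17.0, and promoters from RefSeq on GRCm38.p6. Every member is named, with its value in each library, and from each further list the 2 largest called changes in its main direction and the largest opposite one. The members and lists were chosen with earlier results of these data known.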

Additional observations from a re-analysis of the deposited data

How the results depend on the processing

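Of the 31 members, 26 kept their direction and call in each of 24 alternative settings in which they were tested. The other 5 were Hnrnph2, Hnrnpul2, Srsf11, Srsf4 and Srsf5. With total counts only, their log2 fold changes were -0.22, -0.39, -0.38, -0.18 and -0.26, with limma-trend on log2(RPKM + 0.5) they were -0.22, -0.38, -0.37, -0.17 and -0.26, and on log2(RPKM + 0.1) they were -0.22, -0.39, -0.38, -0.18 and -0.26. With GC content and length offsets they were -0.15, -0.36, -0.50, -0.072 and -0.14. Hnrnpul2 and Srsf11 also turned to -0.10 and -0.090 with upper-quartile scaling, -0.053 and -0.041 without a low-count filter, and -0.11 and -0.10 among protein-coding genes only. The cause was not tested beyond the shift of the all-gene median. Of 4 members higher in adults, 1 was left with upper-quartile scaling, total counts, both limma-trend fits, protein-coding genes only and GC offsets, and 2 without a filter; in those settings 0 hnRNP genes were higher, and 1 SR gene except without a filter. The 1 member higher beyond 2-fold became 0 in those settings and with DESeq2, limma-voom, female libraries, a sex term and the replicate block. With no opposite-strand overlap, where fewer members were tested, 15 were lower, 9 beyond 2-fold, 10 of them hnRNP genes lower. 

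The hnRNP and SR medians were -1.10 and -0.79 with RLE scaling and with DESeq2, -1.28 and -0.97 with upper-quartile scaling, -1.57 and -1.26 with total counts, -1.23 and -0.92 without a filter, -1.55 and -1.24 and then -1.56 and -1.26 with the RPKM fits, -1.28 and -0.98 among protein-coding genes, -1.04 and -0.93 without overlaps and -1.54 and -1.04 with GC offsets. With pseudogene counts added, an alternative chosen after seeing the data, the hnRNP median was -1.22. Without mitochondrial counts the hnRNP and SR shares of counts were 1.46% and 0.385% at E14.5, and 0.486% and 0.176% in adults. Leaving out each library in turn gave 25 lower, 3 to 4 higher, 14 to 16 lower beyond 2-fold and 0 to 1 higher beyond 2-fold. It gave 2 to 3 SR genes higher and medians of -1.18 to -1.14 for hnRNP and -0.87 to -0.80 for SR genes. The replicate numbers are shared by both ages. Deviations from the age means had correlations of -0.00066, -0.012 and 0.026 between libraries of the same number. Libraries of unlike number gave -0.056 to 0.063. With so few libraries, whether a number marks a shared batch cannot be told. With the replicate block, 25 members were lower, 4 higher and 14 lower beyond 2-fold. The number lower beyond 2-fold was also 14 with RLE scaling, limma-voom, a sex term and a filter at a mean of 1 CPM. It was 13 with DESeq2 and 24 with total counts.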

Other observations

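The annotation of the members holds transcript types that the gene counts do not separate. A transcript marked for nonsense-mediated decay is annotated for 19 of the 31 members (61.3%), 9 of them SR genes, and for 26.5% of 15214 tested protein-coding genes. A retained-intron transcript is annotated for 22 members (70.97%) and for 54.8% of those genes. How the reads of a member fall among productive and unproductive transcripts was not analysed here.

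Of 10236 processed pseudogenes, 92 matched 16 of the 31 members over at least 50% of their length, with a median identity of 94.8%. Hnrnpk had 3 copies with 7.45% of its own counts at E14.5 and 7.60% in adults, Srsf10 had 4 copies with 6.65% and 6.85%, and Srsf3 had 5 copies with 6.57% and 5.09%.

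In the embryonic libraries, 31 groups of 4 values were examined for a single value far from the rest, and 0 were found.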
